A study of Mus musculus with 16 samples.

Results

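The genes described here were 10 genes of the amino acid stress response that the transcription factor ATF4 drives, out of 49114 mouse genes to which the deposited transcripts were matched. They were Atf4, Atf5, Ddit3, Trib3, Asns, Chac1, Sesn2, Aldh1l2, Slc7a5 and Slc3a2, and each gene's estimated counts were summed over its transcripts. All 10 were among the 16969 genes that passed the filter on low counts. The genes were chosen with earlier fold changes of the same libraries known, so their values in the 4 comparisons are a description, and counts of members past a threshold support nothing about the set.

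Cells that run short of amino acids, or that meet other stresses, phosphorylate the translation factor eIF2, which slows most protein synthesis but raises translation of Atf4 mRNA. The ATF4 protein then switches on genes that import and make amino acids, together with genes that feed back on the response. In neural progenitors, which divide and grow, the same genes supply amino acids and one-carbon units for biosynthesis.

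RNA was measured by polyA RNA sequencing in 16 cultures of neural progenitor cells (NPCs) grown from mouse cortex at E18.5, late in gestation, with 4 libraries in each of 4 groups. All cultures carried a lentivirus that expresses Cas9 constitutively and were selected with puromycin for 48 h. In the KO DHT+ENZ group the virus also carried a guide RNA against Chd1, a chromatin remodeller gene, and cells received 10 µM enzalutamide (ENZ, an androgen receptor antagonist) for 30 min and then 10 nM dihydrotestosterone (DHT, an androgen) for 24 h. The KO DHT group had the same guide with DHT and no ENZ, the KO DMSO group had the guide with the DMSO vehicle, and the WT DMSO group had the vehicle and a control virus. The growth protocol describes that virus as Cas9 alone, while the series' design text names a control CRISPR plasmid of another name, so whether the WT cultures carried a control guide is not settled by the labels. The labels name selection and expansion but no cloning, and the 4 biological replicates came from embryos of 2 litters. No culture had ENZ without DHT, and no WT culture had DHT, so an effect of ENZ of its own and a reversal of a DHT effect cannot be told apart.

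WT DMSO replicate 1 was the shallowest library, with 20.2 M (mega) estimated counts, and the remaining 15 held 31.8 to 36.9 M each. All 9 neural progenitor markers were expressed, with a summed abundance of 6393 to 7736 TPM (length-corrected transcript abundance) in KO DHT+ENZ and 7016 to 8248 TPM in WT DMSO. Some markers of other neural lineages were also expressed. In WT DMSO, 6 oligodendrocyte lineage markers summed to 1287 to 1352 TPM, 6 neuron markers to 249.9 to 488.6 TPM and 5 astrocyte markers to 35.9 to 126.8 TPM. Of these, 3, 3 and 4 averaged at least 1 TPM. Over all libraries, Olig1 (763.5 to 1057 TPM) and Olig2 (422.4 to 576.6 TPM) were the highest oligodendrocyte lineage markers. Pdgfra, Mbp and Sox10 did not exceed 1.86, 1.72 and 0.682 TPM. Map2 (214.6 to 468.3 TPM) led the neuron markers, with Dcx at most 0.557 TPM. Aldh1l1 (23.9 to 121.6 TPM) led the astrocyte markers, with Aqp4 at most 0.375 TPM. The sums thus rest on few genes and do not show that cells of these lineages were present. Chd1 RNA averaged 67.3 ± 2.68 CPM (counts scaled by library size) in KO DMSO and 66.7 ± 5.73 CPM in WT DMSO (SD, n = 4 each), and RNA level does not check whether a guide disrupted a gene. Because the samples were bulk RNA, fewer cells of a type and less RNA per cell cannot be told apart in any value below.

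ATF4 binds DNA as a dimer with C/EBP-family proteins at an element whose core is searched here as TGATGNAA, on both strands, in windows of 250 bases before to 50 bases after each transcription start (RefSeq, build GRCm38.p6). Of 32851 promoters, 1304 (3.97%) held the core. The table had promoters for 8 of the 10 genes, and 3 of these 8 genes, Asns, Chac1 and Trib3, held it. The stretches around the 3 matches are shown because these genes are 3 of the members measured below; capitals mark the match, on the strand of the gene, and a match describes letters and not a bound site.
Asns: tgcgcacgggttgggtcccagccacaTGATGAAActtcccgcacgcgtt
Chac1: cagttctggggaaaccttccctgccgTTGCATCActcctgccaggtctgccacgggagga
Trib3: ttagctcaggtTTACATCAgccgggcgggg

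The Asns stretch lies at chr6:7693210-7693258 on the minus strand and ends at the base before the start, with the match 23 to 16 bases before it. The Chac1 stretch lies at chr2:119351023-119351082 on the plus strand, and its match, which reads TGATGCAA on the opposite strand, lies 193 to 186 bases before the start. The Trib3 stretch lies at chr2:152344028-152344057 on the minus strand, and its match, which reads TGATGTAA on the opposite strand, covers bases 15 to 22 of the transcribed part. The windows of Atf4, Atf5, Ddit3, Sesn2 and Slc3a2 did not hold these letters.

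The 10 genes differed widely in level. On the length-corrected TPM scale, WT DMSO cultures held most of Slc3a2 (865 ± 20.9 TPM) and Slc7a5 (417 ± 9.29 TPM), the 2 chains of the LAT1 transporter that carries large neutral amino acids into cells. Asns (300 ± 13.8 TPM), Atf5 (288 ± 21.4 TPM) and Atf4 (244 ± 26.1 TPM) followed, then Sesn2 (100.4 ± 24.2 TPM) and Ddit3 (51.3 ± 13.5 TPM). Chac1 (23.4 ± 3.23 TPM), Aldh1l2 (22.5 ± 5.07 TPM) and Trib3 (21.0 ± 3.45 TPM) were lowest and lay within each other's spread (SD, n = 4 for each value). These are sums over transcripts, and the leading Asns transcript alone averaged 270.5 ± 44.3 TPM. In WT DMSO replicate 1 it stood at 206.7 TPM, while the 448-base Asns-206 reached 65.5 TPM, against 7.57 to 18.15 TPM in replicates 2 to 4. Slc3a2-208 stood at 222.8 TPM in that library, against 98.6 to 113.8 TPM in replicates 2 to 4. The levels that follow are in CPM, with TMM normalization, and are compared only between libraries for the same gene.

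Apart from Sesn2, group means were lowest in KO DMSO or KO DHT, and highest in KO DHT+ENZ or WT DMSO, as the plot of levels by library shows. The share of all genes with this order was not counted, so it is a description alone. Ranges of groups next to each other in the order overlapped, except between KO DHT+ENZ and the group below it for Slc7a5 and Slc3a2. Sesn2 was the exception, with its lowest mean in KO DHT+ENZ.

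**Figure D1:**
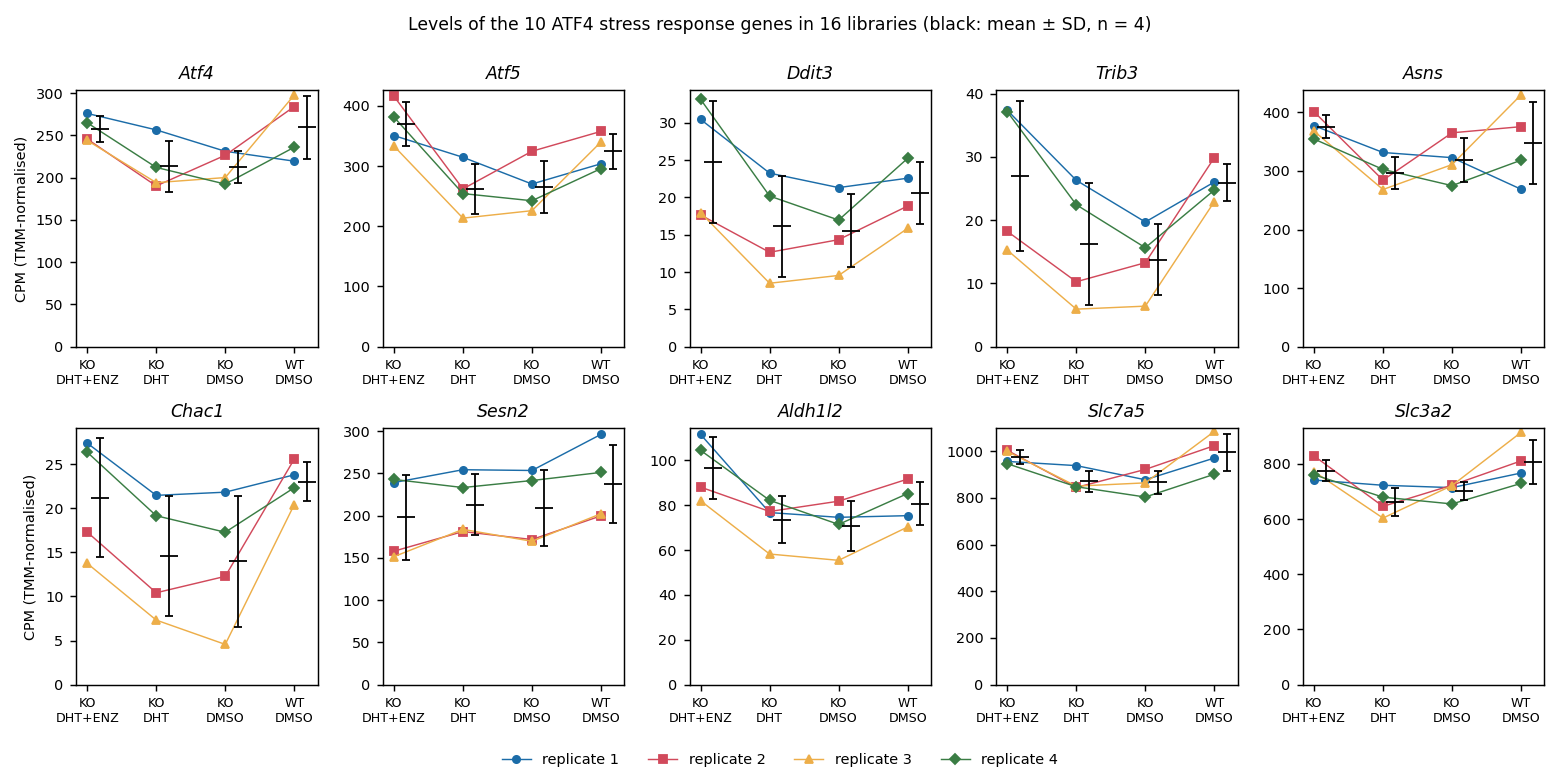
Level of each of the 10 genes in CPM (vertical axes, each starting at 0) in the 4 groups, with one coloured line for each replicate number and the group mean ± SD in black (n = 4). For Atf5 the KO DHT+ENZ libraries lay at 333.3 to 416.0 CPM, above all KO DHT libraries at 213.5 to 314.6 CPM, while Sesn2 showed no such step and was high in replicates 1 and 4 of every group.

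Of the transcription factors, Atf4 itself stood at 276.0, 245.7, 244.0 and 264.9 CPM in KO DHT+ENZ replicates 1 to 4, against 256.5, 190.2, 194.1 and 212.1 CPM in KO DHT, 231.2, 226.5, 200.1 and 192.4 CPM in KO DMSO and 219.5, 284.1, 297.8 and 236.0 CPM in WT DMSO. Every KO DHT+ENZ library was above every KO DMSO library, whereas the KO DHT range overlapped that of KO DHT+ENZ through replicate 1. The WT DMSO replicates spread most widely, and replicate 1 was their lowest.

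Atf5, a related factor that is also controlled through eIF2, had 350.7, 416.0, 333.3 and 381.4 CPM in KO DHT+ENZ, against 314.6, 262.1, 213.5 and 254.3 CPM in KO DHT, 270.2, 324.6, 225.9 and 242.4 CPM in KO DMSO and 303.8, 357.6, 340.0 and 295.8 CPM in WT DMSO. The KO DHT+ENZ libraries lay above all libraries of KO DHT and of KO DMSO and overlapped those of WT DMSO.

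Ddit3 encodes CHOP, a factor linked to cell death under lasting stress. It had 30.5, 17.6, 18.0 and 33.2 CPM in KO DHT+ENZ, against 23.3, 12.7, 8.5 and 20.2 CPM in KO DHT, 21.3, 14.3, 9.55 and 17.0 CPM in KO DMSO and 22.6, 18.9, 15.9 and 25.2 CPM in WT DMSO. The groups overlapped, because replicates 1 and 4 were above replicates 2 and 3 in each of them, but within each replicate number KO DHT+ENZ was above KO DHT.

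Trib3, a pseudokinase that restrains ATF4 and CHOP, varied most. It had 37.3, 18.2, 15.3 and 37.1 CPM in KO DHT+ENZ, against 26.3, 10.3, 5.93 and 22.4 CPM in KO DHT, 19.7, 13.3, 6.40 and 15.6 CPM in KO DMSO and 26.0, 29.9, 22.9 and 24.7 CPM in WT DMSO. No KO DMSO library reached the lowest WT DMSO library, and the WT DMSO values were close together while those of each KO group parted into high replicates 1 and 4 and low replicates 2 and 3.

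Of the metabolic enzymes, Asns, which makes asparagine, had 377.4, 401.2, 368.1 and 354.6 CPM in KO DHT+ENZ, against 331.6, 284.4, 268.4 and 302.7 CPM in KO DHT, 322.8, 365.2, 310.9 and 275.0 CPM in KO DMSO and 268.9, 375.7, 430.0 and 318.4 CPM in WT DMSO. The KO DHT+ENZ and KO DHT libraries did not overlap, and WT DMSO held both the highest library and, together with KO DHT replicate 3, the lowest ones. Aldh1l2, a mitochondrial folate enzyme, had 111.6, 88.1, 82.0 and 104.5 CPM in KO DHT+ENZ, against 76.8, 77.2, 58.3 and 82.2 CPM in KO DHT, 74.6, 81.8, 55.4 and 71.5 CPM in KO DMSO and 75.4, 91.7, 70.3 and 85.2 CPM in WT DMSO. Its KO DHT+ENZ libraries were all above those of KO DMSO and overlapped those of KO DHT between 82.0 and 82.2 CPM alone. Chac1, which breaks down glutathione, ranged over 13.7 to 27.4 CPM in KO DHT+ENZ, 7.32 to 21.5 CPM in KO DHT, 4.57 to 21.8 CPM in KO DMSO and 20.4 to 25.6 CPM in WT DMSO, with replicate 3 lowest in each group.

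The transporter chains moved within narrow limits. Slc7a5 had 956.4, 1004, 999.4 and 946.7 CPM in KO DHT+ENZ, against 938.5, 844.9, 850.6 and 848.0 CPM in KO DHT, 877.9, 922.2, 864.6 and 803.9 CPM in KO DMSO and 970.9, 1024, 1085 and 901.5 CPM in WT DMSO. All KO DHT+ENZ libraries were above all KO DHT and all KO DMSO libraries. Slc3a2 lay at 741.5 to 829.0 CPM in KO DHT+ENZ, 603.6 to 722.5 CPM in KO DHT, 654.9 to 722.8 CPM in KO DMSO and 729.2 to 914.0 CPM in WT DMSO, and no KO DMSO library reached the lowest of WT DMSO.

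Sesn2, which encodes a leucine sensor that restrains the growth kinase mTORC1, had 239.2, 158.0, 151.5 and 242.9 CPM in KO DHT+ENZ, against 254.4, 181.2, 183.8 and 233.3 CPM in KO DHT, 253.5, 171.8, 169.7 and 241.6 CPM in KO DMSO and 296.2, 199.8, 202.3 and 251.2 CPM in WT DMSO. The replicate number parted its libraries more than the group did. Over all groups, replicates 1 and 4 lay at 233.3 to 296.2 CPM and replicates 2 and 3 at 151.5 to 202.3 CPM, a ratio of means of 1.42. The same ratio was 1.67 for Ddit3, 1.71 for Trib3 and 1.61 for Chac1, whose ranges overlapped, and 0.91 to 1.13 for the other 6 genes. The litter of each replicate is not given in the labels, and the source of this split was not tested.

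KO DMSO against WT DMSO asked what the Chd1 guide changed without added androgen. All 10 genes had negative log2 fold changes, with a median of -0.24 beside -0.0016 over all genes tested. The largest were those of Trib3 (-0.91, SE 0.41) and Chac1 (-0.72, SE 0.38), then Ddit3 (-0.41, SE 0.30), Atf4 (-0.29, SE 0.11) and Atf5 (-0.29, SE 0.13), and the smallest was that of Asns (-0.13, SE 0.13). In 8 of the 10 the KO DMSO library was the lower one in 4 of 4 same-numbered pairs, which 6.56% of all genes also showed. Atf4 and Asns were the exceptions, both higher in KO DMSO in pair 1 alone, by 0.07 and 0.26. The ranges of 2 genes, Trib3 and Slc3a2, did not overlap and were lower in KO DMSO (0.466% of all genes).

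None of the 10 was called at an adjusted p under 0.05 in edgeR's quasi-likelihood test (0.0% of all genes called), nor with the replicate number as a block (0.0%), nor in DESeq2 (0.0%). Unadjusted p-values under 0.05 were found for 5 of 10 (2.99% of all genes) without the block and 9 of 10 (7.83%) with it. The pair medians of the 10 genes were -0.11, -0.19, -0.52 and -0.27 for pairs 1 to 4. WT DMSO replicate 1, the shallowest library, also had the lowest share of mitochondrial counts: shares were 3.53% to 3.74% in KO DMSO and 1.35% to 3.59% in WT DMSO. The summed level of 8 pericyte, meninges and fibroblast markers was 3.41 to 4.53 TPM in KO DMSO and 4.12 to 11.3 TPM in WT DMSO. Of these markers 1 averaged at least 1 TPM and Pdgfrb did not exceed 0.0366 TPM in any library. The part of the shallow library and of these markers in the differences was not tested.

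**Figure D2:**
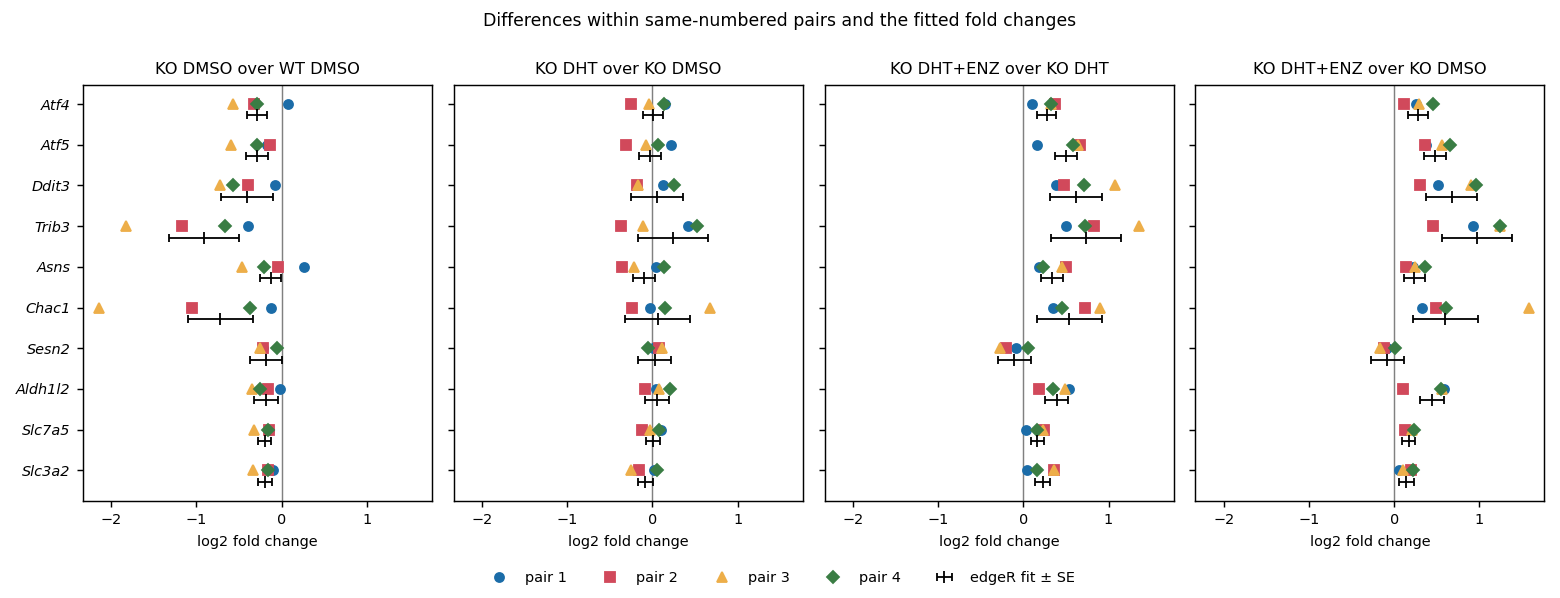
Log2 fold change of each gene (rows) within each of the 4 same-numbered pairs (coloured points) and from the edgeR fit to all libraries (black tick ± SE), for the 4 comparisons. Points lie left of 0 for most genes in KO DMSO over WT DMSO, on both sides in KO DHT over KO DMSO, and right of 0 for all genes but Sesn2 in both comparisons of KO DHT+ENZ.

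KO DHT against KO DMSO asked whether the androgen changed these genes in the KO cultures. Fitted log2 fold changes ran between -0.10 for Asns and 0.24 for Trib3, with a median of 0.02 (-0.0021 over all genes). No gene of the 10 differed in one direction in 4 of 4 pairs, which 11.3% of all genes did upwards and 13.2% downwards. None was called by edgeR at an adjusted p under 0.05 (0.0% of all genes), by the fit with the block or by DESeq2 (0.0% in each), and none had an unadjusted p under 0.05 without the block (1.14% of all genes) or with it (8.0%). Pair medians were 0.07, -0.21, -0.06 and 0.14, and 7 of the 10 genes were lower in KO DHT in both pairs 2 and 3 and higher in both pairs 1 and 4, which 6.05% of all genes also were.

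KO DHT+ENZ against KO DHT asked what the antagonist changed in the presence of the androgen. The fitted log2 fold change was positive in 9 of the 10 genes, with a median of 0.37 (-0.0025 over all genes). It was 0.73 for Trib3 (SE 0.41), 0.62 for Ddit3 (SE 0.30), 0.54 for Chac1 (SE 0.38), 0.50 for Atf5 (SE 0.13), 0.39 for Aldh1l2 (SE 0.14), 0.34 for Asns (SE 0.13), 0.27 for Atf4 (SE 0.11), 0.23 for Slc3a2 (SE 0.09) and 0.17 for Slc7a5 (SE 0.08). These 9 were higher in KO DHT+ENZ in 4 of 4 pairs (14% of all genes), and 4 of them, Atf5, Asns, Slc7a5 and Slc3a2, had ranges that did not overlap (3.08%). Sesn2, at -0.11 (SE 0.19), was lower in pairs 1 to 3 and higher by 0.06 in pair 4.

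Without the block, 0 of the 10 were called by edgeR at an adjusted p under 0.05 (0.265% of all genes called), with 5 at an unadjusted p under 0.05 (6.96% of all genes) and 9 with the block (15.7%). With the replicate number as a block 3 of the 10 were called (3.48% of all genes), namely Atf5 (adjusted p = 0.0111, edgeR with the block), Ddit3 (adjusted p = 0.0119) and Aldh1l2 (adjusted p = 0.0191). DESeq2 without the block called 1, Atf5 (1.62% of all genes). When WT DMSO replicate 1, a library of neither group, was left out of the blocked fit, 7 of the 10 were called, with Atf4, Trib3, Asns and Slc3a2 added, and the share of all genes called was 8.58%.

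KO DHT+ENZ against KO DMSO uses the same KO DHT+ENZ libraries, so its values stand beside the preceding ones and do not repeat them independently. Its log2 fold changes were 0.97 for Trib3 (SE 0.41), 0.67 for Ddit3 (SE 0.30), 0.60 for Chac1 (SE 0.38), 0.48 for Atf5 (SE 0.13), 0.45 for Aldh1l2 (SE 0.14), 0.28 for Atf4 (SE 0.11), 0.24 for Asns (SE 0.13), 0.17 for Slc7a5 (SE 0.08), 0.14 for Slc3a2 (SE 0.09) and -0.08 for Sesn2 (SE 0.19). All but Sesn2 were higher in KO DHT+ENZ in 4 of 4 pairs (16% of all genes), and Atf4, Atf5, Aldh1l2, Slc7a5 and Slc3a2, 5 in all, did not overlap between the groups (2.92%). The count called by edgeR was 0 without the block (0.253% of all genes), with 6 at an unadjusted p under 0.05 (5.77%) and 7 with the block (13.5%). It was 3 with the block (2.94%), again Atf5 (adjusted p = 0.0132, edgeR with the block), Ddit3 (0.00954) and Aldh1l2 (0.00873), and 6 with the block when WT DMSO replicate 1 was left out, with Atf4, Trib3 and Chac1 added (7.24% of all genes). DESeq2 called Atf5 alone (1.35%).

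Other measures also differed between the groups compared here. The mitochondrial share of counts was 4.31% to 4.50% in KO DHT+ENZ, against 2.91% to 3.63% in KO DHT and 3.53% to 3.74% in KO DMSO. All 16 genes of a mitosis list had negative fold changes, whose median was -0.57 (log2) over KO DHT, where 8 were called by edgeR without the block, and -0.60 over KO DMSO, where 10 were called; with the block 15 were called in each. Fold changes over KO DHT also tracked transcript length, with rank correlations across genes of 0.20, -0.59, -0.30 and -0.35 in pairs 1 to 4. The same correlations were 0.10, 0.66, 0.53 and 0.41 in KO DHT over KO DMSO. They were 0.30, -0.085, 0.16 and 0.05 in KO DHT+ENZ over KO DMSO, which was weaker than in both other comparisons in pairs 2 to 4 but stronger in pair 1. In KO DMSO over WT DMSO, where no KO DHT library entered either, they were 0.10, -0.49, 0.18 and -0.14. With the block and this length trend removed, 3 of the 10 genes were called over KO DHT (Atf5, Ddit3 and Aldh1l2; 3.49% of all genes) and 4 over KO DMSO, where Trib3 was added (3.62%). The summed level of 6 microglia markers was 2.42 to 3.47 TPM in KO DHT+ENZ and 3.70 to 4.71 TPM in KO DHT. It was 2.72 to 5.43 TPM in KO DMSO and 2.29 to 5.71 TPM in WT DMSO, which overlapped KO DHT+ENZ. Of the 6 markers, 2 averaged at least 1 TPM, and Tmem119 was not above 0.0668 TPM in any library. The part of the mitochondrial share, the mitosis genes and the microglia markers in the fold changes of the 10 genes was not tested.

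**Figure D3:**
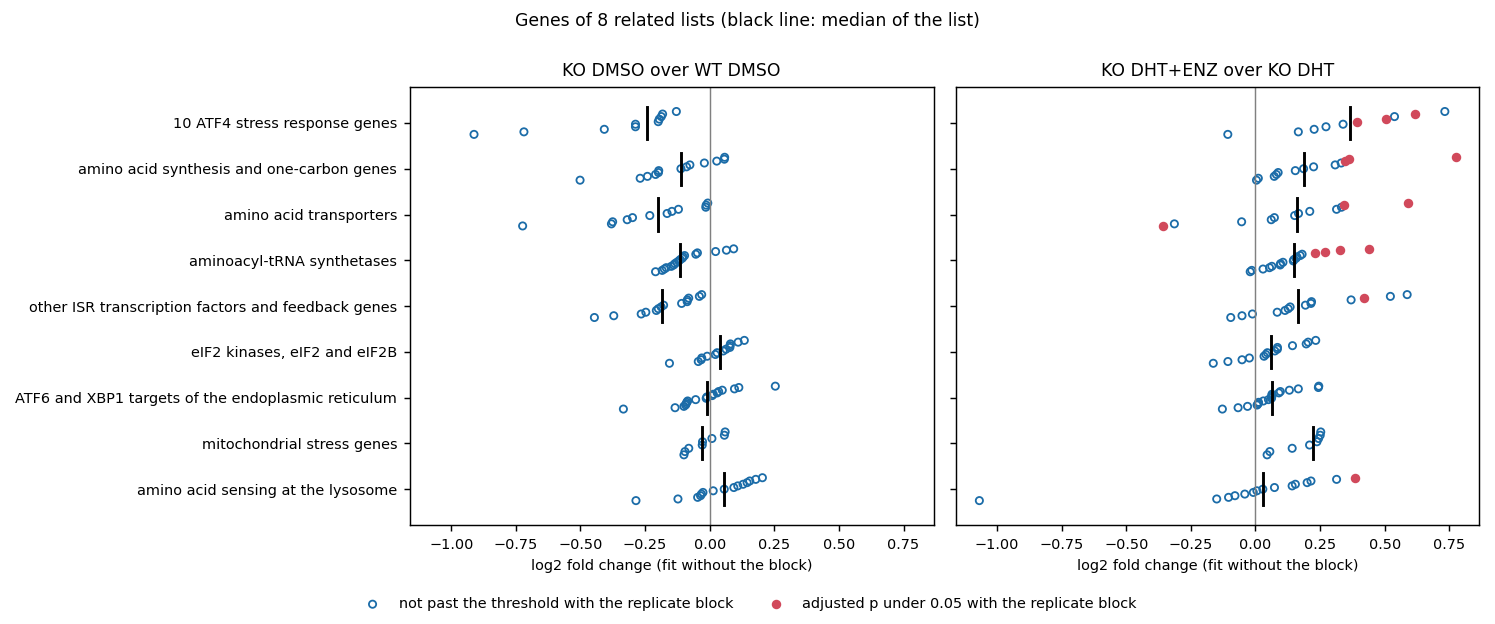
Log2 fold change (horizontal axis, fit without the block) of each gene of the 10-gene set and of 8 related lists (rows) in KO DMSO over WT DMSO and in KO DHT+ENZ over KO DHT. Filled points are genes past an adjusted p of 0.05 in the fit with the replicate block, and the black line is the list's median, which for amino acid transporters was -0.20 in the first comparison and 0.16 in the second.

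Related genes were taken from 8 lists of the pathway with 112 measured members, none of them among the 10. In KO DMSO against WT DMSO, 0 of the 112 were called in either edgeR fit (0.0% of all genes). All 12 amino acid transporters had negative log2 fold changes, with a median of -0.20, and so did all 14 measured genes of the list of other stress response factors and feedback genes, with a median of -0.18. The tRNA synthetases had a median of -0.12 (15 of 18 negative) and the amino acid synthesis and one-carbon genes one of -0.11 (10 of 13). Over all genes the median was -0.0016. Medians of the remaining lists lay nearer 0. The eIF2 kinases and subunits, upstream of ATF4, had a median of 0.04 over 14 genes. Endoplasmic reticulum targets of ATF6 and XBP1, a separate branch of stress signalling, had one of -0.01 over 18. Genes of amino acid sensing at the lysosome had one of 0.06 over 15, and mitochondrial stress genes one of -0.03 over 8.

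In KO DHT against KO DMSO 0 of the 112 were called in either edgeR fit (0.0% of all genes), and list medians ran from -0.07 for the synthesis genes to 0.04 for the transporters.

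In KO DHT+ENZ against KO DHT, 0 of the 112 were called without the block (0.265% of all genes), and with it 11 were higher and 1 was lower (3.48% of all genes). Leaving WT DMSO replicate 1 out of the blocked fit gave 29 in place of 12, with 8.58% of all genes called. The 13 amino acid synthesis and one-carbon genes were all positive, with a median log2 fold change of 0.19, and 3 of them rose in the blocked edgeR fit. Got1, an aspartate aminotransferase, averaged 79.9 ± 3.69 CPM in KO DHT+ENZ and 62.8 ± 3.65 CPM in KO DHT (SD, n = 4 each), a log2 fold change of 0.35 (adjusted p = 0.00925, edgeR with the block). Pycr1, which completes proline synthesis, averaged 57.8 ± 4.90 CPM in KO DHT+ENZ and 44.9 ± 3.40 CPM in KO DHT (0.36). Cth, which makes cysteine, averaged 16.3 ± 2.25 CPM in KO DHT+ENZ and 9.53 ± 1.78 CPM in KO DHT (0.77).

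Among the 12 transporters 2 rose and 1 fell in that fit. Slc7a3, which carries cationic amino acids, averaged 36.7 ± 8.62 CPM in KO DHT+ENZ and 24.4 ± 7.12 CPM in KO DHT (log2 fold change 0.59; adjusted p = 0.00801, edgeR with the block). The glycine transporter gene Slc6a9 averaged 46.2 ± 3.70 CPM in KO DHT+ENZ and 36.4 ± 4.32 CPM in KO DHT (0.34). Slc43a1, a carrier of large neutral amino acids like LAT1, fell to 8.52 ± 1.16 CPM in KO DHT+ENZ, against 10.9 ± 1.35 CPM in KO DHT (-0.36).

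Of the 18 tRNA synthetases, which load amino acids onto tRNAs, 4 rose in the blocked fit: Sars for serine (0.44), Wars for tryptophan (0.27), Nars for asparagine (0.23) and Rars for arginine (0.33), the last named after its value was seen. Sars averaged 343.8 ± 26.8 CPM in KO DHT+ENZ and 253.2 ± 15.0 CPM in KO DHT (adjusted p = 0.00427, edgeR with the block). Eif4ebp1, a repressor of cap-dependent translation, was the 1 of 14 other factors and feedback genes that rose, at 118.8 ± 14.6 CPM in KO DHT+ENZ and 88.9 ± 7.23 CPM in KO DHT (0.42). Rragd, a GTPase of amino acid sensing at the lysosome, was the 1 of 15 of its list (0.38). No gene passed in the lists of eIF2 kinases and subunits (median 0.06), of ATF6 and XBP1 targets (0.06) or of mitochondrial stress genes (0.22, 8 of 8 positive).

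Over KO DMSO, Rragd was the 1 list gene that rose in KO DHT+ENZ without the block (0.253% of all genes), at 56.7 ± 3.88 CPM in KO DHT+ENZ and 39.2 ± 2.03 CPM in KO DMSO (log2 fold change 0.53; adjusted p = 0.0467, edgeR). That count was 0 when any library other than WT DMSO replicates 1 and 4 was left out. With the block, 7 of the 112 rose and 1 fell (2.94% of all genes), and the count was 25 without WT DMSO replicate 1 (7.24% of all genes). The transporter genes Slc7a1 (0.26), Slc7a3 (0.44) and Slc43a1 (-0.44, lower) were among them, with Slc6a9 (0.32) also higher and named after its value was seen. Sars (0.29), the stress sensor Atf6 (0.38), Sel1l of endoplasmic reticulum protein degradation (0.28) and Rragd completed them.

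Likeness to the set was measured as Pearson's r between a gene and the mean standardised log2 CPM of the 10 genes over the 16 libraries, after each replicate number's mean was removed, and is a description without a test. Each member was set against the mean of the other 9. Trib3 (r = 0.98), Slc7a5 (0.96), Atf4 (0.95), Ddit3 (0.92) and Atf5 (0.91) followed it most closely, then Chac1 (0.90), Slc3a2 (0.87), Asns (0.84) and Aldh1l2 (0.73). Sesn2 had r = 0.02. The genes outside the set with the highest r were Pck2, a mitochondrial enzyme of phosphoenolpyruvate synthesis (0.95), Mthfd2, a mitochondrial folate enzyme (0.95), Slc6a9 (0.95), the heme oxygenase gene Hmox1 (0.95) and Cth (0.95), of which Mthfd2, Slc6a9 and Cth were also in the lists above. All values share the same libraries and normalization.

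**Figure D4:**
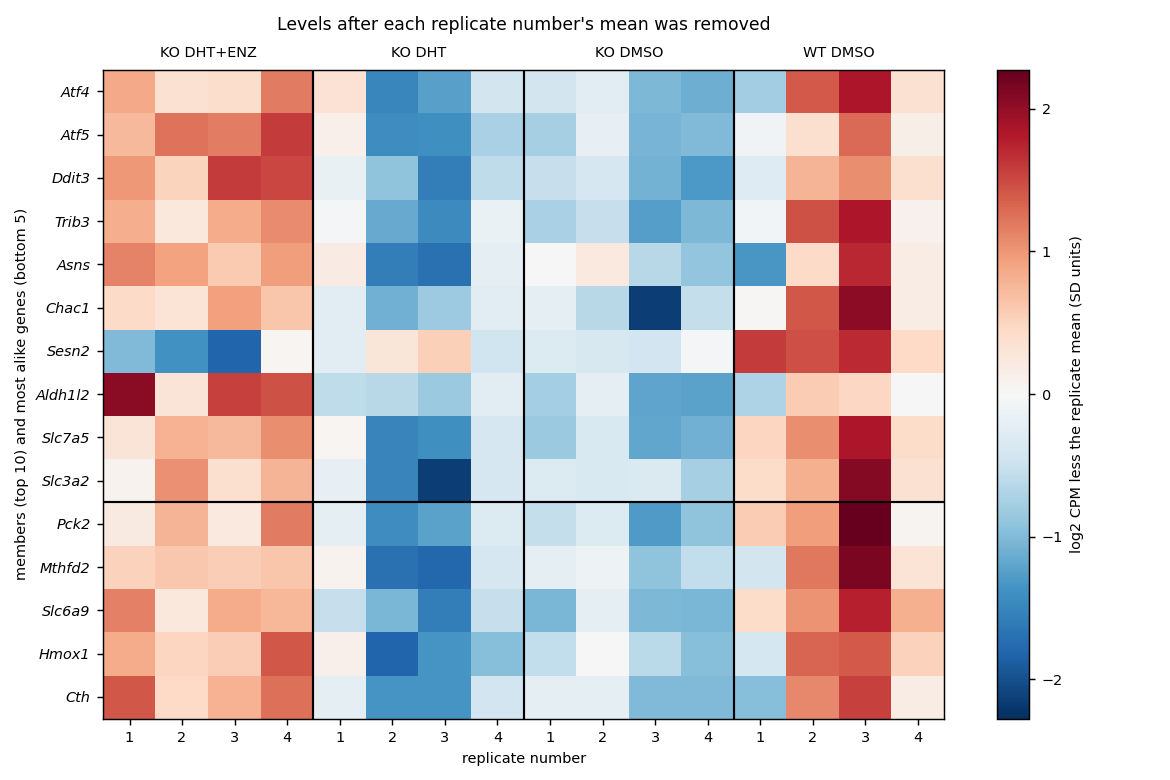
Log2 CPM of the 10 genes and of the 5 most alike other genes (rows) in the 16 libraries (columns, grouped by condition), after each replicate number's mean was removed, in SD units of each gene. Except for Sesn2, rows are mostly above 0 (red) in KO DHT+ENZ and in WT DMSO replicates 2 to 4 and mostly below 0 (blue) in KO DHT and KO DMSO, and WT DMSO replicate 1 is near or below 0 for several genes such as Asns and Atf4.

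Transcript makeup gave a measure that did not enter the choice of genes. Chac1 and Sesn2 have 1 listed transcript each, and the leading transcript of the others held most of the gene's TPM, from 67.0% to 70.3% as a group mean for Slc3a2 to over 98% for Atf4 and Slc7a5. For Ddit3 the leading coding transcript took 81.4% ± 2.79 in KO DHT+ENZ and 75.0% ± 5.34 in KO DHT, with 80.6% ± 2.13 in KO DMSO and 80.2% ± 4.44 in WT DMSO (SD, n = 4 each). For Atf5 it took 98.5% ± 0.54 in KO DHT+ENZ and 96.5% ± 2.03 in KO DHT. Over 8 genes and 4 comparisons, 0 of 32 two-sided exact permutation tests had an unadjusted p under 0.05, the smallest p found was 0.0571 (adjusted p = 0.457), and 0.0286 is the smallest that 4 against 4 libraries allow. An adjusted p under 0.05 would have needed most of the 32 tests at that smallest value. The tests did not use the replicate numbers as pairs. Exons of Ddit3 overlap those of Mars on the other strand by 68 bases, those of Atf5 overlap Nup62 and Il4i1 by 82 bases, and those of Aldh1l2 overlap D10Wsu102e by 1056 bases. The sources used here do not say whether strand was used, so reads in these stretches cannot be told apart. Ddit3, Atf5 and Aldh1l2 are also the 3 members called with the block in both comparisons of KO DHT+ENZ. The part of such reads in those calls was not tested.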

How the data were processed

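Libraries were polyA RNA from cultured mouse cortical progenitors, read as paired 150 bp reads, with an RNA integrity number above 8, per the labels' protocols. Transcripts were quantified by kallisto on GRCm39, per the submitters' processing notes (versions not given in the sources used here). The deposited tables give estimated counts (expected counts, not normalized) and TPM for each transcript, per the file headers. Of 146190 transcripts, 134953 were matched by identifier to 49114 genes of GENCODE M21, used for names, strands and exon overlaps only; these held 98.8% to 99.1% of each library's counts. Deposited TPM values served for levels between genes, transcript shares and marker sums, and were not tested in a model.

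Gene sums were rounded and tested with edgeR 4.0.16 (quasi-likelihood, TMM, filterByExpr, 16969 genes) in R 4.3.3, in 1 model of 4 groups over 16 libraries without a replicate term. P-values were adjusted by Benjamini-Hochberg over all genes and called under 0.05. The SE is the absolute log2 fold change over the square root of edgeR's F. Each SE printed beside a fold change comes from the fit without the block, so it includes the spread between replicate numbers. Log2 CPM used a prior count of 2. The members, lists and tests were chosen with earlier results of these data known. Named list genes are those called with or without the block, at most 3 per list and comparison by smallest p, and the 5 most alike genes have a mean of at least 10 CPM. Alternatives were the block, DESeq2 1.42.0 and its size factors, no filter, trends in length or GC removed, 2 groups only, the block without WT DMSO replicate 1, and leaving out each library.

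Whether replicate numbers pair the cultures was checked on 9745 genes: after group means were removed, r between same-numbered libraries of compared groups was 0.16 to 0.79, over the 0.1 required, so the numbers were taken to pair the samples by this check and not by a statement in the labels. Of 16 libraries, 10 were closest to one of their own number. The r between differently numbered libraries was not set beside these values. The check therefore does not tell pairing of cultures from a split of replicates 1 and 4 from 2 and 3, and results with the block rest on it. Sums, exact tests and plots used SciPy 1.17.1, pandas 2.3.3 and matplotlib 3.10.9 in Python 3.11.15. The edgeR steps without the block were tested on data simulated without differences between replicate numbers, so the fit with the block was not covered.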

Additional observations from a re-analysis of the deposited data

Results flagged for a closer look

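In 72 groups of 4 libraries (10 genes by level and 8 by transcript share, in 4 groups), the gap of the highest or lowest library to its nearest neighbour was compared with the group's range, and a share above Dixon's 95% critical value marked a library; chance marks about 5% of groups. There were 4 such values. Slc7a5 in KO DHT replicate 1 lay above the other 3 libraries, at a log2 CPM of 9.87 (938.5 CPM). Slc3a2 in KO DMSO replicate 4 lay below the others, at a log2 CPM of 9.36 (654.9 CPM). The share of the leading Atf5 transcript stood apart below the others in replicate 3 of 2 groups, at 97.7% in KO DHT+ENZ and 93.4% in KO DHT. It was also lowest in replicate 3 of KO DMSO, at 94.2%, where the gap did not mark it.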

How the results depend on the processing

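In KO DMSO over WT DMSO the 10 genes kept negative signs under all 8 other settings and all 16 removals of a library. The median of the 10 stayed between -0.29 and -0.21 over the removals, between 0.30 and 0.41 in KO DHT+ENZ over KO DHT and between 0.28 and 0.42 in KO DHT+ENZ over KO DMSO. No removal of a single library without the block gave a called member in any comparison. Among members and related lists the block changed no call beyond those counted here. For members, list genes and all genes called in KO DHT+ENZ over KO DHT, the counts were 3, 12 and 590 with the block, 1, 5 and 211 in DESeq2, 3, 10 and 593 with the block and the length trend removed, 3, 17 and 1049 with the block and the GC trend removed, and 7, 29 and 1478 with the block and without WT DMSO replicate 1. In KO DHT+ENZ over KO DMSO they were 3, 8 and 499, 1, 1 and 180, 4, 10 and 615, 4, 16 and 946, and 6, 25 and 1247 in the same settings. Without the filter 17 and 9 genes were called in these comparisons, and the single list gene of the second was lost (0), as with DESeq2's size factors (0) and in a fit of 2 groups only, where 0 genes passed. With the block and without WT DMSO replicate 1, 3 genes passed in KO DMSO over WT DMSO and 1 in KO DHT over KO DMSO, none of them members. Removals gave 2 to 116 genes and 0 to 2 list genes called over KO DHT (lowest without KO DHT+ENZ replicate 2, highest without WT DMSO replicate 1), and 0 to 98 and 0 to 2 over KO DMSO. In KO DHT over KO DMSO signs near 0 turned: Atf4 -0.0024 and Slc7a5 -0.0012 with no filter, Atf5 0.0546, Aldh1l2 -0.0259 and Slc3a2 0.0038 with the block and no length trend, Atf5 0.0555 with the block and no GC trend, and Atf4 -0.0043 with the block and without WT DMSO replicate 1. Over removals these fold changes ran from -0.1039 to 0.0487 for Atf4, -0.1356 to 0.084 for Atf5, -0.1791 to 0.2653 for Ddit3, -0.1003 to 0.5141 for Trib3, -0.2311 to 0.3568 for Chac1, -0.0751 to 0.1283 for Sesn2, -0.0462 to 0.1504 for Aldh1l2 and -0.0401 to 0.0354 for Slc7a5. Sesn2 ran from -0.2181 to 0.0024 in KO DHT+ENZ over KO DHT and from -0.1948 to 0.0289 over KO DMSO. The cause of these shifts was not tested. Chac1, Trib3 and Ddit3 were measured at the lowest counts of the 10, and had the largest standard errors without the block, 0.30 to 0.41, against 0.13 to 0.25 with it.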
